A study of Mus musculus with 3 samples.

Results

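The enzymes that make serine and pass its carbon to folate were examined in mouse splenic CD4+ T cells. The set was named by function and holds 9 genes of the 31053 counted: *Phgdh*, *Psat1* and *Psph* of serine synthesis, *Shmt2*, *Mthfd2* and *Mthfd1l* of the mitochondrial folate pathway, and *Shmt1*, *Mthfd1* and *Tyms* of the cytosol and nucleus. All 9 were counted in each of 3 droplet single-cell RNA-seq libraries, with 1 library per group. The unstimulated WT library came from cells kept in DPBS, and the stimulated WT and stimulated IFT20-KO libraries came from cells cultured for 24 h with anti-CD3 and anti-CD28. All 3 were enriched for naive CD4+ cells from spleens of C57BL/6 mice carrying the loxP-flanked Ift20 f/f allele, and were sorted as 7AAD- CD3+ CD4+. The WT mice had no Cre, and the IFT20-KO mice also carried a CD4 cre transgene, which acts in T cells from their development in the thymus onward. The mice were males aged 5 to 10 weeks, and the number of mice behind each library is not given in the sources used here. Unstimulated IFT20-KO cells are not analysed here, so genotype was compared only after stimulation.

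With 1 library per group there was no replicate of any condition and no test was possible. Levels are unique molecular identifiers (UMIs) scaled to a library total of 1e+06 (CPM), summed over barcodes that showed over 200 genes and less than 15% of UMIs from mitochondrial transcripts, and every 95% interval covers counting error only, not the spread between mice. The libraries held 8031, 9903 and 13920 such barcodes, with a median of 4627, 12167 and 5014.5 UMIs per cell, in the order unstimulated WT, stimulated WT, IFT20-KO. Between 114 and 197 barcodes were shared by any pair of libraries. *Ift20*, the deleted gene, was at 64.4, 76.0 and 6.60 CPM in that order. The summed CD4+ T cell markers were at 2850, 2510 and 2555 CPM, while B cell, myeloid and NK cell markers together stayed under 50 CPM in each library. The naive markers summed to 3383, 904 and 1045 CPM and the activation markers to 169, 1163 and 1086 CPM. In bulk sums over a library, more cells expressing a gene and more RNA per expressing cell are the same number, which is why cells holding a UMI were also counted.

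Serine synthesis branches off glycolysis. PHGDH oxidizes 3-phosphoglycerate, PSAT1 adds the amino group, and PSPH removes the phosphate to release serine. Serine hydroxymethyltransferase then splits serine into glycine and a one-carbon unit carried on tetrahydrofolate, in mitochondria by SHMT2 and in the cytosol by SHMT1. MTHFD2 and MTHFD1L oxidize the mitochondrial unit and release it as formate, which the trifunctional MTHFD1 reloads onto folate in the cytosol for purine synthesis. TYMS spends a one-carbon unit to methylate dUMP to thymidylate for DNA. Dividing T cells need both purines and thymidylate.

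The upstream sequences of the serine hydroxymethyltransferase pair and of *Tyms* are shown because the comparisons below turn on these genes. Each is the 250 bases before the annotated start in RefSeq, build GRCm38.p6, read 5′ to 3′ on the strand of the gene. Capitals mark the letters CACGTG, the E-box that Myc-family factors can bind, and are found in *Tyms* only.
Shmt2, chr10:127522445-127522694, minus strand: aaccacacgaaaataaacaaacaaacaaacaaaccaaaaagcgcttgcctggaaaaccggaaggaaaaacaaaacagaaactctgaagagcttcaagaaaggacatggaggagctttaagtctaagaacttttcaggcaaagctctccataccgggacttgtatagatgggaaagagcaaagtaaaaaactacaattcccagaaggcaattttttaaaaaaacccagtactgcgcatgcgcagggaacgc
Shmt1, chr11:60811266-60811515, minus strand: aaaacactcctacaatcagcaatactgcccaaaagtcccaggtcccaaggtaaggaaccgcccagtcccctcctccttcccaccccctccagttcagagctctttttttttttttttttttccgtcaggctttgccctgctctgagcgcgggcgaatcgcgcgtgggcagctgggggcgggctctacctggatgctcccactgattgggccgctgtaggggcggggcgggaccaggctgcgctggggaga
Tyms, chr5:30073626-30073875, minus strand: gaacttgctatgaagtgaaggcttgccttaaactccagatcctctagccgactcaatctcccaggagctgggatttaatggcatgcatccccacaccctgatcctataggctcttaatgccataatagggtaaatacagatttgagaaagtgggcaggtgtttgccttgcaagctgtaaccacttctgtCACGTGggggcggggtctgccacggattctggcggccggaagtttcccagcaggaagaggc
The *Shmt2* gene lies at chr10:127517123-127522444, *Shmt1* at chr11:60788104-60811718 and *Tyms* at chr5:30058202-30073617, all on the minus strand in GENCODE M21 on GRCm38.

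Promoter windows of 300 bases, the 250 before the start and 50 after it, were found for all 9 genes, with 10 windows because *Psat1* has 2 annotated starts. On both strands, the E-box CACGTG occurred in 7.15% of 32851 mouse promoter windows and in 1 of the 10, that of *Tyms*, at 61 bases before the start. The letters TGATGNAA, a composite element of the kind ATF4 binds, occurred in 3.97% of all windows, and TTTGGCGC or TTTCCCGC, the letters of E2F sites, in 1.56%. Neither was found in the 10 windows, which says only that these letters are not there. The processed pseudogenes *Phgdh-ps1* and *Tyms-ps* exist in the annotation and were not counted in the files. Their identity to the parent genes was not measured, and any reads they share with them could have been dropped or assigned to the parent. *Shmt1* overlaps *Smcr8* on the opposite strand, and without a stated use of strand in the counting their reads cannot be told apart. *Smcr8* was counted at 319 UMIs (8.59 CPM) in unstimulated WT and 806 (6.89 CPM) in stimulated WT, against 238 and 13670 UMIs of *Shmt1*. *Shmt2* and *Mthfd1* overlap opposite-strand genes that had at most 3 UMIs in these 2 libraries.

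The first comparison asked how the enzymes differ between resting and activated T cells. All 9 were higher in stimulated than in unstimulated WT, a direction that 47% of genes had. Each was higher by at least 2-fold, where 19.3% of the 13297 genes with at least 10 UMIs were that much higher and 23% that much lower. The median log2 ratio of the 9 was 2.65, against -0.089 over all genes and 0.28 over the 3339 genes at 50 CPM or more. Summed over the 9 enzymes, the level was 329.6 CPM in unstimulated WT, 1980 in stimulated WT and 1853 in stimulated IFT20-KO. One UMI stands for 1 captured transcript end whatever the length of the gene, and capture can differ between genes. The text therefore follows each enzyme across libraries and compares folds between enzymes. Where UMIs of different enzymes are set against each other within a library, only the change of that ratio between libraries can be read.

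*Phgdh*, which encodes the first enzyme of serine synthesis, was counted at 75.9 CPM in unstimulated WT, 478 in stimulated WT and 426.5 in stimulated IFT20-KO. *Psat1*, the aminotransferase, was at 23.1, 326 and 299 CPM in the same order. *Psph*, the phosphatase of the last step, was at 40.0, 208 and 188 CPM. In each gene both stimulated libraries stood far above the unstimulated one and close to each other. The stimulated to unstimulated WT ratio was 14.1-fold for *Psat1* (log2 3.82, 95% interval 3.72 to 3.92), 6.30-fold for *Phgdh* (2.65, 2.60 to 2.71) and 5.20-fold for *Psph* (2.38, 2.30 to 2.45). The intervals do not overlap, so over all cells the steps of this short pathway differed in fold beyond counting error, with the middle step highest. Between cells rich in activation markers (94 of them unstimulated) this order did not hold. There the log2 ratios of *Psat1* and *Psph* were nearly level, at 2.31 and 2.30, and that of *Phgdh* was 1.78. In UMIs per cell, with no scaling for the deeper stimulated cells, the log2 ratios were 5.17 for *Psat1*, 4.01 for *Phgdh* and 3.73 for *Psph*, and those of all 9 enzymes lay between 2.68 and 5.54.

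Among the mitochondrial enzymes, *Shmt2* was at 38.5 CPM in unstimulated WT, 327 in stimulated WT and 308 in stimulated IFT20-KO. *Mthfd2*, the NAD-dependent dehydrogenase and cyclohydrolase, was at 80.7, 289 and 266 CPM. *Mthfd1l*, which releases formate, was at 31.4, 79.0 and 84.8 CPM. The fold of stimulated over unstimulated WT was graded along this arm: 8.51 for *Shmt2* (log2 3.09, 3.01 to 3.17), 3.58 for *Mthfd2* (1.84, 1.79 to 1.90) and 2.52 for *Mthfd1l* (1.33, 1.24 to 1.42). *Mthfd1l* was the lowest of the 9 and still higher than 86.2% of all genes in this ratio. Once cells were thinned to 1400 UMIs, *Mthfd2* and *Mthfd1l* were nearly level, at 1.73 and 1.71. Between cells rich in activation markers (94 of them unstimulated) *Mthfd1l* was at 0.29, under the threshold. There *Mthfd2* was at 1.95 and *Shmt2* at 1.90, so *Mthfd2* was no longer below *Shmt2*.

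Of the cytosolic and nuclear enzymes, *Shmt1* was at 6.41 CPM in unstimulated WT, from 238 UMIs, and at 117 and 108.5 CPM in stimulated WT and IFT20-KO. *Mthfd1* was at 27.4, 99.4 and 101.5 CPM. *Tyms* was at 6.30, 57.02 and 70.0 CPM, with 234 UMIs behind the first value. The fold was 18.2 for *Shmt1* (log2 4.19, 4.004 to 4.38), the highest of the 9 and higher than 98.6% of all genes, 9.05 for *Tyms* (3.18, 2.99 to 3.37) and 3.63 for *Mthfd1* (1.86, 1.77 to 1.95). *Mthfd1* and *Mthfd2*, which carry out matching steps in the 2 compartments, had overlapping intervals, whereas both hydroxymethyltransferases lay above them. In cells of activation index above 0.5 (the share of activation marker UMIs among activation and naive marker UMIs of a cell), of which the unstimulated library held 94, the *Shmt1* ratio was a log2 of 1.30, lower than that of *Psat1* (2.31) and 5 other members, so its place as the highest does not hold there.

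**Figure D1:**
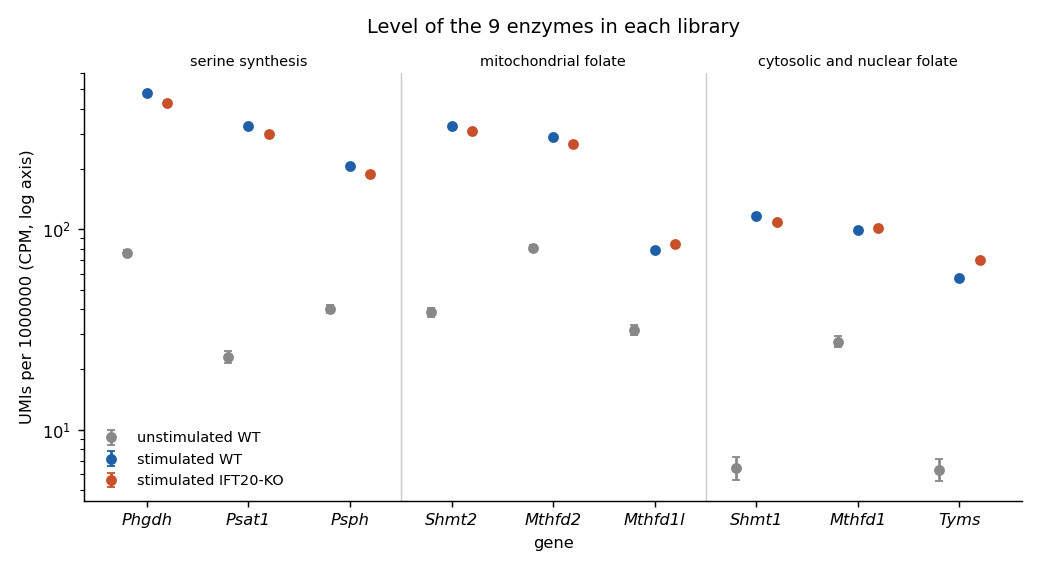
CPM of each of the 9 enzymes on a log axis, 1 point per library with the exact 95% counting interval, grouped by role. Both stimulated libraries lie above the unstimulated one for each enzyme, from 6.41 to 117 CPM for *Shmt1* and from 31.4 to 79.0 CPM for *Mthfd1l* between the WT libraries.

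The second comparison set the mitochondrial against the cytosolic enzyme of each step. *Shmt2* UMIs outnumbered *Shmt1* UMIs by 6.00 in unstimulated WT (95% interval 5.23 to 6.91), 2.80 in stimulated WT (2.75 to 2.86) and 2.84 in stimulated IFT20-KO (2.78 to 2.90). The ratio was thus lower after stimulation, by a log2 of -1.10 (-1.30 to -0.90), although both genes were higher. The 2 stimulated libraries had overlapping intervals, with a difference of 0.021 (-0.020 to 0.063).

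For the next step, *Mthfd2* and *Mthfd1l* together outnumbered *Mthfd1* by 4.09 (3.82 to 4.38), 3.70 (3.63 to 3.78) and 3.46 (3.38 to 3.53) in the same order. The difference between stimulated and unstimulated WT was a log2 of -0.14 (-0.25 to -0.039), small beside that of the hydroxymethyltransferases. Its parts were unequal: the *Mthfd2* to *Mthfd1* ratio was 2.94 and 2.91 in unstimulated and stimulated WT, a difference of -0.017 (-0.12 to 0.090), while the *Mthfd1l* to *Mthfd1* ratio was 1.14 and 0.794, a difference of -0.53 (-0.65 to -0.40). Of all UMIs of the 6 folate enzymes, 79.0%, 71.8% and 70.2% were mitochondrial, and 81.7%, 76.3% and 75.8% with *Tyms* left out.

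Among cells with an activation index above 0.5 the point values of both differences turned, to 0.60 and 0.74 on the log2 scale. No interval was computed for them, so whether they differ from no change beyond counting error is not known. The unstimulated side of that comparison was 94 cells holding 21 UMIs of *Shmt1*, 34 of *Shmt2* and 24 of *Mthfd1*. Grouped by depth, the *Shmt2* to *Shmt1* difference was below 0 in each of 5 groups, at -1.70 (-2.12 to -1.27) for 2000 to 5000 UMIs and -0.77 (-1.06 to -0.48) for 5000 to 10000, with intervals that hold 0 in the 2 deepest groups. The outer groups rested on few *Shmt1* UMIs in unstimulated WT, 7 under 2000 UMIs and 2, from 4 cells, over 20000. The difference of *Mthfd2* plus *Mthfd1l* to *Mthfd1* did not keep its direction: it was -0.30 (-0.56 to -0.042) at 2000 to 5000 UMIs, 0.088 (-0.091 to 0.27) at 5000 to 10000 and 0.082 (-0.30 to 0.46) at 10000 to 20000.

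**Figure D2:**
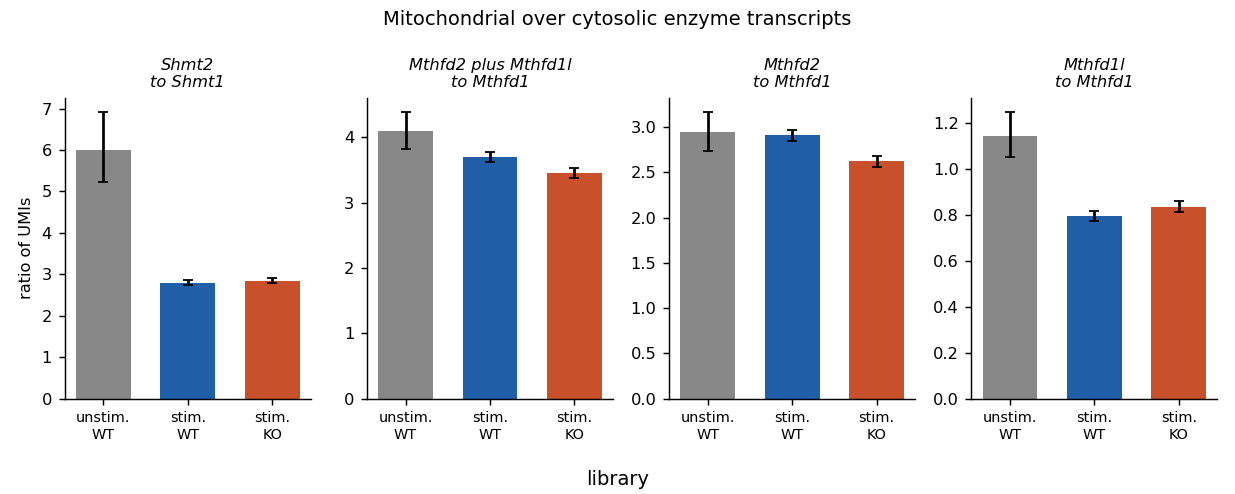
Ratio of mitochondrial to cytosolic UMIs in each library for the hydroxymethyltransferase step and for the dehydrogenase and formate steps, with exact 95% counting intervals. *Shmt2* to *Shmt1* is 6.00 in unstimulated WT and 2.80 and 2.84 in the stimulated libraries, while the *Mthfd2* to *Mthfd1* ratio stays between 2.62 and 2.94.

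The higher library sums came with more cells holding a UMI. *Phgdh* was seen in 25.5% of unstimulated WT cells, 81.7% of stimulated WT cells and 74.6% of stimulated IFT20-KO cells, and *Shmt1* in 2.58%, 54.6% and 43.3%. Because deeper cells show more genes, each cell was also thinned at random to 1400 UMIs, which left out 801 unstimulated and 421 stimulated WT cells of lower depth and no IFT20-KO cell. At equal depth *Phgdh* was seen in 8.87%, 42.7% and 40.2%, *Psat1* in 3.20%, 31.3% and 30.5%, *Shmt2* in 4.92%, 33.0% and 31.7%, and *Shmt1* in 0.705%, 13.7% and 13.1%. The stimulated to unstimulated contrast held at equal depth for all 9, and most of the gap between the stimulated libraries in the unthinned shares was not seen there. For *Tyms* the order of these libraries turned, from 33.5% in WT and 31.4% in IFT20-KO unthinned to 7.06% and 9.53% thinned. It also turned for *Mthfd1l*, from 53.2% and 42.0% to 11.8% and 13.2%. For *Mthfd1* it went from 57.8% and 45.0% to 12.1% and 13.0%, with thinned intervals that overlap. In each of these genes the thinned order is that of the CPM.

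At 1400 UMIs, 66.5% of unstimulated WT cells held no UMI of any of the 9 enzymes, against 13.4% of stimulated WT and 12.1% of stimulated IFT20-KO cells. Cells holding 3 or more of the enzymes made up 0.899%, 34.3% and 32.7%. No cell type in this sort is known to lack these enzymes, so the share that free RNA gives could not be measured. In the unstimulated library it cannot exceed the thinned shares of *Shmt1* and *Tyms*, 0.705% and 0.775%, for these genes.

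The cells of a library were then grouped by 40 S-phase transcripts, none of them a member or a nucleotide enzyme named here, counted after thinning. Cells with 3 or more such UMIs made up 7.77% of unstimulated WT, 66.4% of stimulated WT and 81.1% of stimulated IFT20-KO. In stimulated WT, *Tyms* was at 22.7 CPM in cells with none, 27.3 with 1 to 2 and 72.6 with 3 or more. The same tiers gave 32.1, 39.1 and 79.7 CPM in stimulated IFT20-KO and 4.70, 6.13 and 15.1 CPM in unstimulated WT. *Tyms* therefore followed the S-phase transcripts inside each library, by a log2 of 1.69, 1.68 and 1.31 between the outer tiers, in the same order of libraries as the shares above. Depth differed between tiers in IFT20-KO, with a median of 10591 UMIs in cells with none and 3474 in cells with 3 or more, against 12512 and 12720 in stimulated WT. In cells of 5000 to 20000 UMIs the *Tyms* difference was 0.98 (0.027 to 1.86), 1.41 (1.16 to 1.67) and 1.08 (0.79 to 1.38). *Shmt1* came next in stimulated WT, at 83.0, 100.5 and 126.8 CPM across the tiers. Over cells of all depths the other 7 enzymes differed between the outer tiers by a log2 of at most 0.34 in the stimulated libraries. In cells of 5000 to 20000 UMIs the largest of these differences were 0.42 for *Psph* in IFT20-KO and 0.38 for *Phgdh* in stimulated WT. The tiers are ranges and not cell states: 1423 stimulated WT cells stood at 2 such UMIs and 1435 at 3.

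The activation index gave another order. It was above 0.5 in 1.17%, 56.2% and 47.1% of cells, and 1985 stimulated WT and 3684 IFT20-KO cells lay within 0.1 of that value. *Shmt1* was at 137.8 CPM above the value and 82.1 CPM at or below it in stimulated WT, and *Mthfd2* at 328.7 and 223.3 CPM. *Tyms* was on the other side, with a log2 difference of -0.17 in stimulated WT and -0.076 in IFT20-KO. *Phgdh* hardly differed, by 0.062 and 0.11. Cells above the value were deeper, and in cells of 5000 to 20000 UMIs the difference was 0.86 and 0.59 for *Shmt1* in stimulated WT and IFT20-KO, 0.61 and 0.57 for *Mthfd2*, and -0.25 and -0.11 for *Tyms*. In both stimulated libraries *Shmt1* and *Mthfd2* thus differed most by the index and *Tyms* most by S-phase transcripts. The split was not clean, since all enzymes except *Tyms* were higher above the index. *Shmt1* was also higher in cells with 3 or more S-phase UMIs than in those with none, by a log2 of 0.61 in WT and 0.50 in IFT20-KO.

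**Figure D3:**
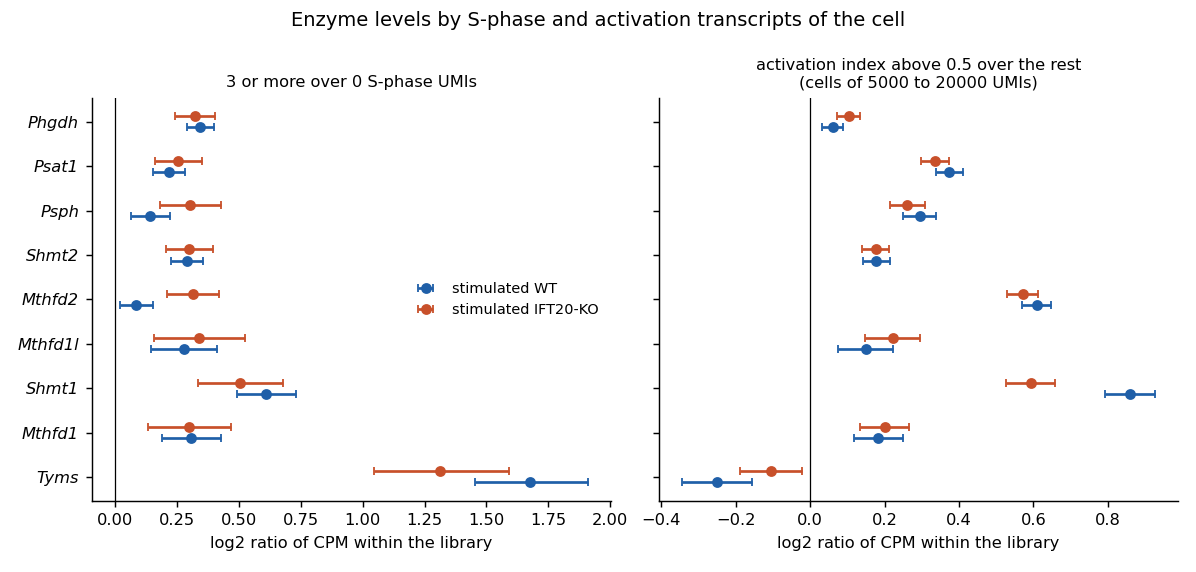
Log2 ratio of each enzyme between cells with 3 or more and cells with 0 S-phase UMIs, and between cells above and at or below an activation index of 0.5, in the 2 stimulated libraries with 95% counting intervals. *Tyms* has the highest S-phase ratio, 1.68 in WT and 1.31 in IFT20-KO, and lies below 0 for the index, where *Shmt1* and *Mthfd2* are highest.

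The third comparison asked whether the enzymes differ when IFT20, a protein of intraflagellar transport that has roles in T cells beyond cilia, is missing. None of the 9 passed a log2 ratio of 0.5 in either direction between stimulated IFT20-KO and stimulated WT, where 17.2% of the 13504 genes with at least 10 UMIs were that much higher and 3.97% that much lower. Among genes at 50 CPM or more in either library, as all 9 were, these shares were 2.11% and 0.782%. None of 9 is near those shares and is not particular to the enzymes. The median of the 9 was -0.11, against 0.14 over all genes and -0.011 over the 2943 genes at 50 CPM or more, and 3 of the 9 were above 0, as 68.3% of genes were. Serine synthesis was slightly lower as a whole, with *Phgdh* at -0.16 (-0.18 to -0.15), *Psph* at -0.15 (-0.17 to -0.12) and *Psat1* at -0.12 (-0.15 to -0.10). *Shmt2*, *Mthfd2* and *Shmt1* were at -0.086 (-0.11 to -0.065), -0.12 (-0.14 to -0.097) and -0.11 (-0.14 to -0.071). These 6 intervals lay below 0 by counting error, at sizes that no replicate library can be set against.

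*Mthfd1* was at 0.030 (-0.0076 to 0.068), an interval that holds 0. *Mthfd1l* was at 0.10 (0.060 to 0.14), and below 0, at -0.034, when libraries were scaled by the median gene ratio in place of the total, which shifts each ratio by the all-gene median. *Tyms* stood apart as the only enzyme above that median, at 0.30 (0.25 to 0.34), and it was 0.16 under the median scaling. In UMIs per cell with no scaling, *Tyms* was at -0.33 and *Mthfd1l* at -0.53, and 8 of the 9 were lower than the -0.5 threshold. Median depth was 5014.5 UMIs in IFT20-KO cells and 12167 in WT cells. Leaving out the scaling shifts the ratios of all genes by the same amount. The share of all genes below -0.5 was not computed there, so this count cannot be read as particular to the enzymes.

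**Figure D4:**
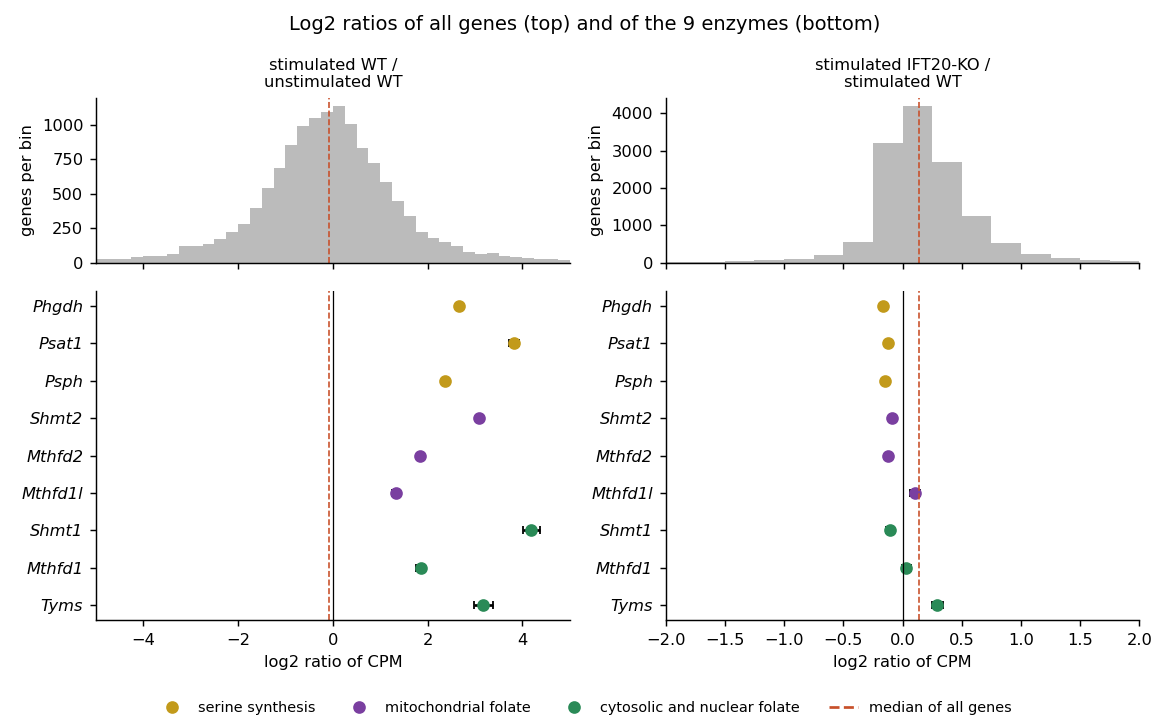
Log2 ratios of the 9 enzymes with 95% counting intervals, stimulated over unstimulated WT and stimulated IFT20-KO over stimulated WT, beside the distribution over all genes tested. All 9 lie above 1 in the first, between 1.33 and 4.19, and none passes 0.5 in either direction in the second, where *Tyms* at 0.30 is the highest.

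Depth moved with the genotype. The share of cells under 5000 UMIs was 24.1% in stimulated WT and 49.99% in stimulated IFT20-KO. Among all barcodes of these libraries, before the filter, the lowest depth was 709 and 1493 UMIs. In cells under 2000 UMIs, 8 of the 9 enzymes were higher in IFT20-KO, from 0.31 for *Shmt1* (0.031 to 0.59) to 0.65 for *Psat1* (0.47 to 0.84), and *Mthfd1l* was at -0.19 (-0.43 to 0.055). The share of all genes higher in IFT20-KO was not computed for this group, so this count cannot be read as particular to the enzymes. Median depth inside the group was 1746 UMIs in IFT20-KO and 1587 in stimulated WT. In cells of 10000 to 20000 UMIs, which held 5098 WT and 4450 IFT20-KO cells, all except *Tyms* lay between -0.11 and 0.041. Of serine synthesis, *Phgdh* (-0.11) and *Psph* (-0.073) stayed lower by counting error in these deep cells, and *Psat1* was at -0.0042 (-0.031 to 0.023). In cells of 2000 to 5000 UMIs, *Phgdh* was at 0.27 (0.16 to 0.39), *Psat1* at 0.30 (0.16 to 0.44) and *Psph* at 0.16 (-0.0062 to 0.33). Over 20000 UMIs *Psat1* was at -0.087 (-0.14 to -0.036). The direction of *Phgdh* and *Psph* thus turned between shallow and deep cells, and that of *Psat1* only in the deepest group. *Mthfd1l* followed depth differently from the other mitochondrial enzymes: in stimulated WT it was at 136.1 CPM in cells under 2000 UMIs and 64.1 CPM at 5000 to 10000, and in IFT20-KO at 119.4 and 69.9 CPM. How far the makeup of depths enters the library values was not tested.

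*Tyms* was at 0.49 (0.42 to 0.55) in cells of 10000 to 20000 UMIs and 0.51 (0.31 to 0.72) in those of 5000 to 10000. It was at 0.029 (-0.17 to 0.23) at 2000 to 5000 and 0.088 (-0.016 to 0.19) over 20000 UMIs, so the higher level in IFT20-KO was not seen at each depth. The S-phase transcripts summed to 714, 2985 and 3506 CPM in unstimulated WT, stimulated WT and IFT20-KO, and moved with *Tyms*. Their part in the *Tyms* difference was not tested, beyond the tier values above. In each tier *Tyms* was higher in IFT20-KO than in stimulated WT. It was at 32.1 and 22.7 CPM with no S-phase UMI, 39.1 and 27.3 with 1 to 2, and 79.7 and 72.6 with 3 or more.

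**Figure D5:**
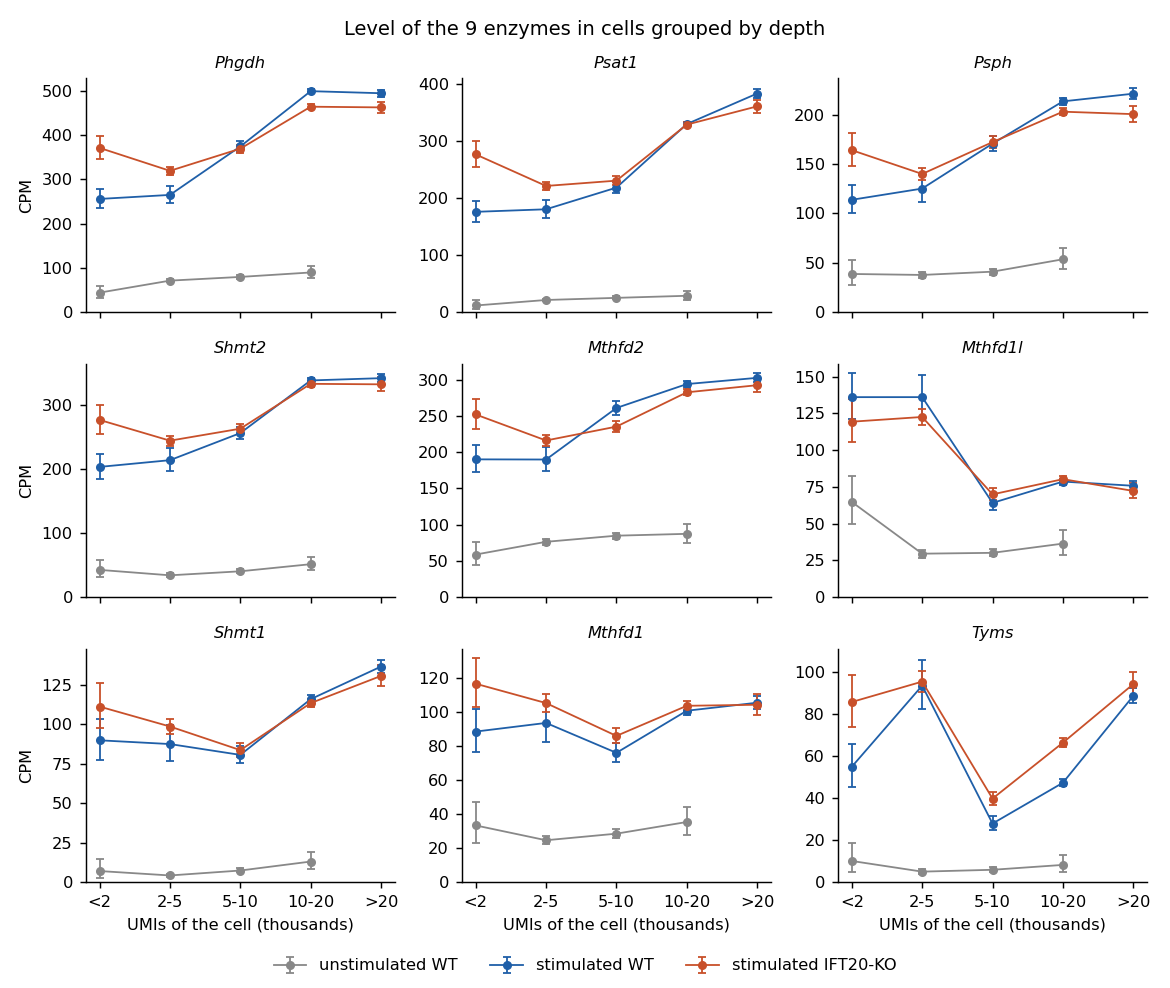
CPM of each enzyme in cells grouped by depth, 1 line per library with 95% counting intervals, on axes of UMIs per cell and CPM. The group of 4 unstimulated cells over 20000 UMIs is left out. Stimulated libraries lie above the unstimulated one at each depth shown, and the stimulated IFT20-KO line for *Tyms* is above the WT line by a log2 of 0.49 at 10000 to 20000 UMIs.

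The rest of the pathway did not move as a block. Of 15 other folate enzymes and carriers, 5 were at least 2-fold higher in stimulated WT and 3 at least 2-fold lower, with a median log2 ratio of 0.11, beside 19.3% and 23% of all genes. *Slc19a1*, the reduced folate carrier, was at 13.9, 81.0 and 81.4 CPM in unstimulated WT, stimulated WT and IFT20-KO, and *Sfxn1*, the mitochondrial serine carrier, at 49.7, 187 and 174 CPM. The related *Sfxn3* was lower after stimulation, at -1.14, and *Mtfmt*, which formylates the mitochondrial initiator tRNA, was at 0.51. In the glycine cleavage system, which feeds mitochondrial folate from glycine, *Gcsh* was at 15.9, 92.9 and 82.6 CPM and *Dld*, shared with other dehydrogenase complexes, had a log2 ratio of 0.79, with 1 of 3 measured genes 2-fold higher and 1 lower. The lower gene was *Amt*, on only 7 UMIs in unstimulated WT, 5 in stimulated WT and 2 in IFT20-KO. *Gldc*, also of this list, had 0, 1 and 1 UMIs in that order. *Amt* and *Gldc* were named after their values were seen, and the level of *Gcsh* does not stand for the whole system.

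Purine and deoxynucleotide synthesis take up one-carbon units or follow from them. Of 12 purine synthesis genes 9 were at least 2-fold higher after stimulation and none lower, with a median of 1.29, led by *Pfas* at 2.59 and *Adss* at 1.57. *Impdh1* (-0.38) and *Prps2* (0.0015) were not. Of 9 deoxynucleotide genes 7 were higher and 1 lower, with a median of 2.44, from *Tk1*, the salvage thymidine kinase, at 5.12 and *Dctd* at 3.53 to *Dck* at -1.21. *Samhd1*, which breaks down deoxynucleotides, was at -0.39. Of 7 methionine cycle and transsulfuration genes 2 were at least 2-fold higher, near the 19.3% of all genes, and none lower, with a median of 0.96. *Mtap*, of methionine salvage, was at 1.17, *Mtrr* at 0.96, *Mat2a* at 0.36 and *Mat2b* at -0.51.

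*Cth*, which makes cysteine, had no UMI in unstimulated WT and 1876 in stimulated WT, at least 198.5-fold higher against a floor of 3 counts, and *Aldh1l2*, a mitochondrial folate dehydrogenase, had none and 191, at least 20.2-fold. Both were named after their values were seen.

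Between stimulated IFT20-KO and stimulated WT these lists were nearly level. The median log2 ratio was 0.081 for the other folate genes, -0.10 for glycine cleavage, 0.034 for the methionine cycle, 0.15 for purine synthesis and 0.28 for deoxynucleotide supply, with 1 gene past 0.5 among methionine genes and 1 among deoxynucleotide genes, *Tk1* at 0.60, where 17.2% of all genes were that much higher. The methionine gene was *Cbs*, on 6 and 9 UMIs, with an interval of -0.93 to 2.49, named after its values were seen. *Rrm2*, a ribonucleotide reductase subunit, was at 0.43, *Pfas* at 0.44 and *Ppat* at 0.34, each above the all-gene median of 0.14 as *Tyms* was. *Samhd1* was at -0.21, *Prps1* at -0.12 and *Dtymk* at 0.054. All genes past 0.5 here were higher in IFT20-KO, as were most such genes in the whole comparison.

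Of 4 transcription factors listed as regulators of these genes, *Myc* was at 75.6, 264 and 220 CPM in unstimulated WT, stimulated WT and IFT20-KO, and *Atf4*, which drives serine synthesis genes under amino acid stress, at 69.3, 201 and 167 CPM. *E2f1*, of the G1 to S transition, had a log2 ratio of 3.01 after stimulation and 0.37 in IFT20-KO, and *Nrf1* was at -0.12 after stimulation. *Myc* and *Atf4* were lower in IFT20-KO than in WT, by -0.26 and -0.27, and *E2f1* was higher.

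Genes were also compared by their log2 CPM across the 3 libraries, each gene centred on its own mean. Among 3434 genes at 50 CPM or more in some library, the nearest to *Mthfd2* were *Aldoa*, *Mettl1*, *Ubfd1*, *Mrpl17* and *Stoml2*, at distances of 0.0057 to 0.034. Among the nearest to *Tyms* were *Cst7*, *Mdfic*, *Slamf1* and *Smyd2*, at 0.014 to 0.15. With 3 libraries many genes share a pattern, and the distance is a description of these values only.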

How the data were processed

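The deposited files hold whole-number UMI counts per gene and barcode, which the authors made with Cell Ranger on mm10, version 3.1.0 per the file headers. The labels name a 5′ kit and the study's methods a 3′ kit, so the end that was read is not settled. Counts were summed over barcodes passing the study's filter (over 200 genes, less than 15% mitochondrial UMIs), which left out 222 unstimulated WT, 417 stimulated WT and 12 IFT20-KO barcodes, and divided by the kept UMIs of each library to give CPM. No doublet caller was run. Poisson, binomial and Clopper-Pearson 95% intervals were exact, and those of a change in a compartment ratio used a normal approximation on log counts. Log2 ratios used genes whose UMIs in the pair of libraries reached 10, and a floor of 3 counts where a library had none. The log2 thresholds were 1 for stimulation and 0.5 for genotype. With 1 library per group no test was run. From each list of other pathway genes the text names the 2 highest and the 2 lowest by log2 ratio among those at 20 CPM or more in either library, for each comparison. Nearest genes were the 5 with the smallest Euclidean distance over the log2 CPM of the libraries, each gene centred on its mean. A gene that these rules pick is not reported here. Calculations used Python 3.11.15, numpy 2.4.6, scipy 1.17.1 and pandas 2.3.3 and were tested on simulated data. The members, lists and rules were chosen with earlier results of these data known. Other scalings, cell filters and depths were tried, and the compartment ratios and S-phase tiers within groups of depth were added after seeing the data.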

Additional observations from a re-analysis of the deposited data

How the results depend on the processing

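No paired analysis was possible because each group has 1 library. Of 56 recomputed counts of enzymes and compartment ratios, 48 gave a count within 1.5 times the reported one or a ratio within its 95% interval, 6 moved and 2 reversed. The 2 that reversed, both in cells of activation index above 0.5, did so as point values without an interval. All 9 enzymes passed 2-fold after stimulation under each alternative except cells of activation index above 0.5, where 7 did. The share of all genes past 2-fold was not computed under these alternatives, and UMIs per cell without scaling shift all genes alike. These counts therefore cannot be read as particular to the enzymes. The log2 difference of the *Shmt2* to *Shmt1* ratio between the WT libraries, -1.10 over all cells, was -0.81 in cells of 5000 to 20000 UMIs, -1.37 after thinning to 1400 UMIs and 0.60 in cells of index above 0.5. That of *Mthfd2* plus *Mthfd1l* to *Mthfd1*, -0.14, was -0.25 after thinning and 0.74 in cells of index above 0.5. Between genotypes, 8 enzymes passed the lower threshold in UMIs per cell, where it was 0 in CPM. Leaving out the scaling shifts all genes alike, and the share of all genes past the threshold was not computed there. The 2 compartment ratios were -0.030 and -0.15 as means of per-cell fractions. The genotype ratio of *Mthfd1l* was -0.53 in UMIs per cell and -0.034 under median-ratio scaling, and that of *Tyms* -0.33 in UMIs per cell. The glycine cleavage median after stimulation was -0.67 with no minimum of UMIs, since a gene with few UMIs then enters. The causes were otherwise not tested. With 1 library per group, no value carries the spread between mice.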
